A study of Mus musculus with 27 samples.

Results

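The first maturation step of conventional CD4 single-positive thymocytes was read from 6 of the 27 arrays of the series. The step ran from cells with high surface CD24 (Foxp3- CD24hi, 3 arrays) to cells with intermediate CD24 (Foxp3- CD24int, 3 arrays). Membership was fixed by the sample labels alone, and every gene with its own probe set was compared, 18194 in all. All cells came from BALB/c mice and carried a GFP reporter of Foxp3. Foxp3 drives the regulatory T cell program, and the 2 groups compared here lacked GFP. Labels of the Foxp3- groups contain the word Treg, while the series design names them as conventional T cells, the reading used here. The other groups compared were Foxp3- thymocytes with low CD24 (Foxp3- CD24lo) and GFP+ thymocytes at high and intermediate CD24 (Foxp3+ CD24hi, Foxp3+ CD24int), 3 arrays each. All 27 arrays were fitted together and shared one estimate of the spread. Standard errors and p-values therefore also draw on lymph node Tregs and naive T cells, Treg precursors and Foxp3+ CD24lo thymocytes. Age, sex and the number of animals per array were not given in the sources used here. Nothing in the labels says that replicates came from separate mice, so the p-values measure only the spread between these samples.

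CD24 is a surface glycoprotein that thymocytes lose as they mature in the thymic medulla. A thymocyte that has passed selection as a CD4 cell stops recombining its T cell receptor genes, loses the receptors that held it in the cortex, and gains those that carry it to the medulla and out into the blood. The egress receptor S1pr1 senses sphingosine 1-phosphate, and its gene is controlled by the factor Klf2. During the same period the cells begin to respond to type I interferon present in the medulla.

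Values below are log2 of RMA intensities, differences are CD24int minus CD24hi on that scale with their standard errors (SE), and a gene is called when its adjusted p is under 0.05. The 3 replicates of each group correlated at 0.987 to 0.995. Cd3e, a subunit of the T cell receptor complex, was at 10.83, 10.89 and 11.08 in CD24hi and at 10.73, 10.70 and 10.91 in CD24int. Cd4 was at 9.49, 9.08 and 9.29 in CD24hi and at 9.32, 8.86 and 9.15 in CD24int. Cd24a, the gene of the sorted protein, was at 10.75, 10.84 and 11.20 in CD24hi and at 7.41, 8.44 and 8.77 in CD24int, a difference of −2.73 ± 0.42 (adjusted p = 0.000142). The CD24 groups did not overlap for Cd24a and lay in the order of the sort. Foxp3 stood at 3.31 to 4.16 in CD24hi and at 3.54 to 4.03 in CD24int, and Il2ra, which encodes the surface protein CD25, differed by −0.10 ± 0.20 (adjusted p = 0.895).

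One array stood apart from the other 5. In replicate 3 of CD24hi, 73 genes were at least 4-fold above both other CD24hi arrays, against 2 in replicate 1 and 0 in replicate 2. Of the 73, 20 were on a list of 26 measured genes of the liver, an organ absent from the sort. Liver genes outside that list were not counted. Albumin (Alb) was at 3.78, 3.90 and 11.65 in the 3 CD24hi arrays and at 3.84 to 4.23 in CD24int. Cyp3a11, a liver cytochrome, was at 2.52, 2.75 and 10.70 in CD24hi and at 2.52 to 3.21 in the 26 arrays of the series other than replicate 3. Over the 26 measured liver genes the mean level was 3.81, 3.86 and 7.63 in CD24hi and 3.81 to 3.97 in CD24int. No liver gene was called in either direction, with a median difference of −1.37 that became 0.06 without that array. The liver list gave 13 lower calls without CD24hi replicate 1 and 9 without CD24hi replicate 2. The part of the liver transcripts in other results was not tested, and calls lost without this array are given with the genes and lists below.

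**Figure D1:**
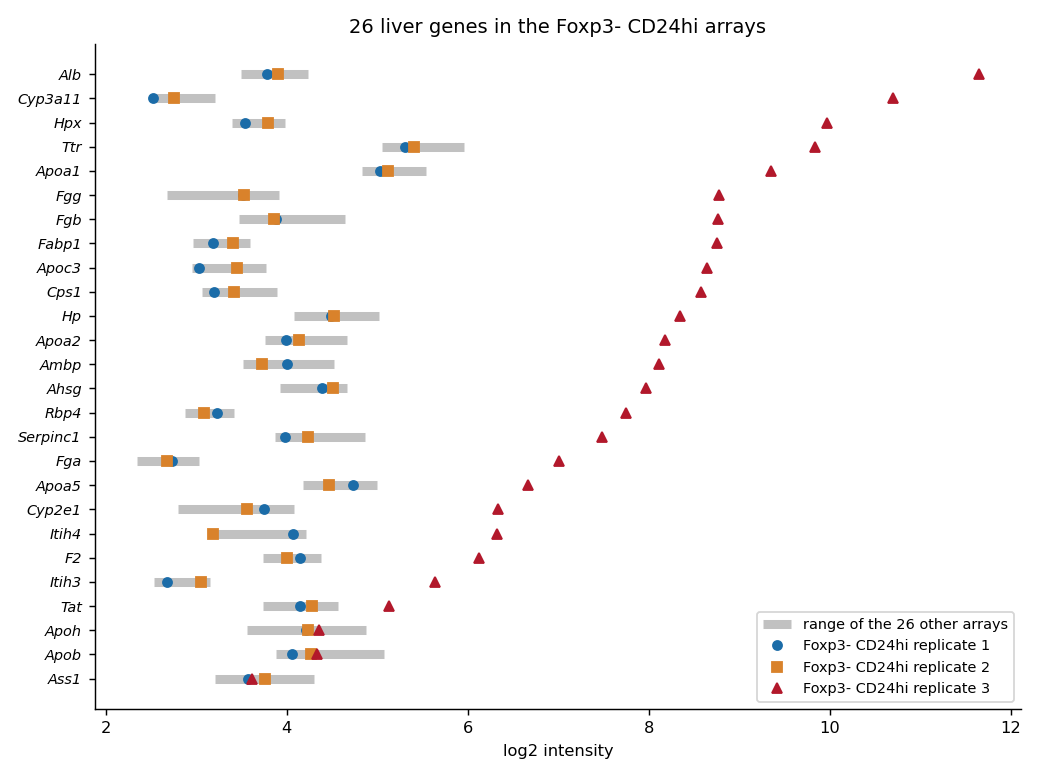
Log2 intensity (horizontal axis) of the 26 measured liver genes, with one mark for each Foxp3- CD24hi array and a grey bar for the range of the 26 arrays other than CD24hi replicate 3. Replicate 3 lies far to the right of the bar for most genes, with Alb at 11.65 and Cyp3a11 at 10.70, while Apoh, Apob and Ass1 lie within it.

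Of the 18194 genes, 911 were called between CD24int and CD24hi (5.01%), of which 411 were higher (2.26%) and 500 lower (2.75%) at CD24int. Differences of at least 2-fold were called for 113 higher genes (0.621%) and 98 lower genes (0.539%). The higher count was 75 without CD24int replicate 1, and with a pseudocount of 16, which shrinks differences between dim values, the counts were 72 and 60. In 408 of the 411 higher genes (2.24% of all genes) and 499 of the 500 lower genes (2.74%) the 3 arrays of one group all lay beyond the 3 of the other. Without regard to the call, 1602 genes (8.81%) separated upward and 1879 (10.3%) downward, and 2848 genes (15.7%) were at an unadjusted p under 0.05. With the replicate number as a block, 1822 genes were called, 815 higher and 1007 lower, and all 911 genes were among them. The higher count fell to 263 without CD24hi replicate 3, and the lower count fell to 296 without CD24int replicate 2. Some of the genes named below lost their calls when the 6 arrays were fitted alone. These were B2m, Bcl2l1, Cblb, Cd1d1, Cdc25b, Cenpa, Cxcr6, Dusp5, Eomes, Epcam, Ifit1 and Ikzf4. Irf9, Itgal, Lcp2, Nab2, Nr4a2, Pfkm, Rsad2, Satb1, Tap1, Tbx21 and Zbtb16 lost theirs in that fit too. With the mean of all probe sets, Bcl2l1, Cenpa, Epcam, Itgb1, Nr4a3, Satb1, Siglech, St6gal1 and Tap1 were not called. The same held on quantile-normalised values for Dusp5, Epcam and Nr4a2, and with a pseudocount for Cxcr6, Epcam, S100a4 and Siglech. The median difference over all genes was 0.00.

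The largest fall was in Rag1, which encodes the recombinase that cuts the T cell receptor genes. Rag1 was at 6.82, 6.58 and 6.91 in CD24hi and at 3.44, 3.66 and 3.87 in CD24int. All 3 CD24hi arrays were well above all 3 CD24int arrays, a difference of −3.11 ± 0.25, or 8.64-fold lower (adjusted p = 1.93e-08). Rag2, the partner subunit, was low throughout, at 3.76 to 4.01 in CD24hi and 3.57 to 4.05 in CD24int. Dntt, the enzyme that adds bases at the joins, was at 8.35, 7.92 and 8.11 and then at 6.53, 6.53 and 6.72, a fall of 1.53 on the log2 scale (SE 0.31, adjusted p = 0.00279).

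Of the 17 measured genes of recombination and the double-positive stage, 7 fell and 0 rose, with a median difference of −0.38. Over all genes 2.75% fell and 2.26% rose with a median of 0.00, and the counts of this and the lists below stand beside those shares. The 7 falling genes were Rag1, Dntt, Cd24a, Cd8a, Cd1d1, Satb1 and Sox4. The cells were sorted on the protein of Cd24a, so its fall was set by the sort and adds nothing to this count. Cd8a, the CD8 chain that a CD4 cell shuts off, was at 5.81, 5.83 and 6.47 in CD24hi and at 4.95, 4.76 and 4.78 in CD24int, a difference of −1.21 ± 0.23 (adjusted p = 0.00151). Its partner chain Cd8b1 was at 8.21 to 8.52 and then at 7.64 to 8.48 and was not called (adjusted p = 0.633). The genome organiser Satb1 (−0.47 ± 0.12) and the factor Sox4 (−0.87 ± 0.23) fell from high levels, at adjusted p of 0.0200 and 0.0208. Without CD24int replicate 2 the list held 4 lower calls. Satb1 kept its call only without CD24int replicate 1 and Sox4 only without CD24hi replicate 1 or CD24int replicate 3, and Cd1d1, which presents lipids, lost its call without CD24int replicate 2. Ptcra, the surrogate receptor chain of earlier thymocytes, Bcl6 and Themis were not called.

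**Figure D2:**
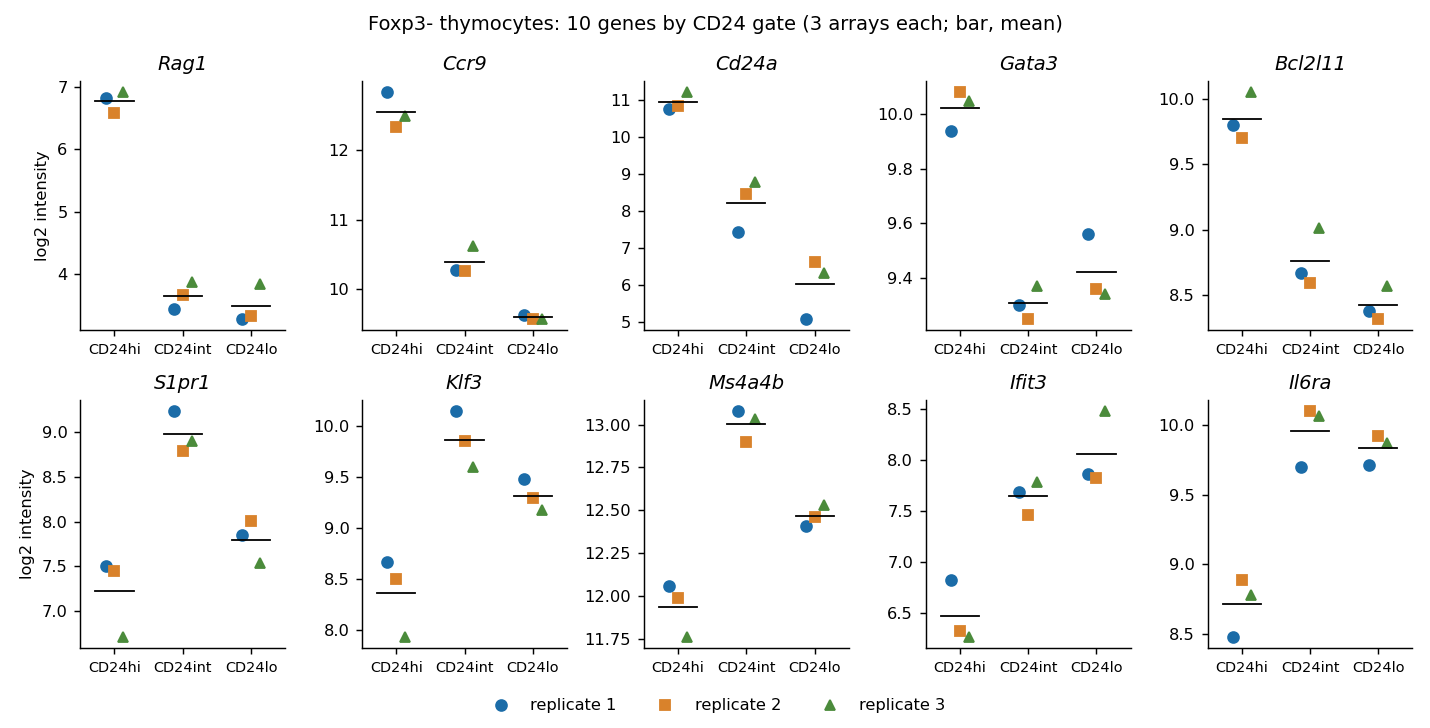
Log2 intensity of 10 genes in the 3 Foxp3- CD24 groups, with one mark per array, shaped by replicate, and a bar at the mean of 3, on vertical axes that differ between panels and do not start at 0. Rag1, Ccr9, Cd24a, Gata3 and Bcl2l11 lie lower and S1pr1, Klf3, Ms4a4b, Ifit3 and Il6ra higher in all 3 CD24int arrays than in all 3 CD24hi arrays.

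The 14 largest falls with separated arrays held, after Rag1 and Cd24a, several genes with little spread. Asb2, a subunit of a ubiquitin ligase, was at 7.87, 7.77 and 7.82 in CD24hi and at 5.45, 5.52 and 5.30 in CD24int. Its difference of −2.39 ± 0.14 (5.26-fold lower, adjusted p = 7.4e-11) had the smallest p of the genes named here. Slc12a5, a potassium-chloride cotransporter best known in neurons, differed by −2.22 ± 0.16, and Celf5, an RNA-binding protein, by −2.08 ± 0.18. The other probe set of Slc12a5, at a mean level of 3.87, differed by 0.00. Etv5, an ETS factor, was at 7.12, 6.91 and 7.29 and then at 4.99, 4.90 and 5.29, a fall of 2.05 on the log2 scale (SE 0.28). The falls of Chdh, a choline dehydrogenase, Lxn, a carboxypeptidase inhibitor, Il17rb, a receptor for IL-25, and F13a1, a coagulation factor subunit, were between 1.95 and 2.16 on the log2 scale. Bex1, Hacd1 and 2700081O15Rik completed the set with Ccr9. All 14 kept their calls in each fit that left out 1 of the 6 arrays.

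Chemokine receptors, which guide thymocytes between cortex and medulla, moved in both directions. Ccr9, the receptor for the cortical chemokine Ccl25, was at 12.83, 12.33 and 12.49 in CD24hi and at 10.28, 10.26 and 10.63 in CD24int. The groups were far apart, with a difference of −2.16 ± 0.16 (4.47-fold lower, adjusted p = 6.26e-09), and all 4 of its other probe sets were lower as well, by 0.80 to 2.93 on the log2 scale. Ccr4, a medullary receptor of newly selected cells, was at 6.10, 6.33 and 5.78 and then at 4.65, 4.96 and 4.58, a fall of 1.34 on the log2 scale (SE 0.15, adjusted p = 2.78e-06). Cxcr4, the receptor for Cxcl12, was at 9.06, 8.98 and 8.11 in CD24hi and at 10.08, 10.11 and 9.72 in CD24int. Its difference of 1.25 ± 0.28 (adjusted p = 0.0063) became 0.94 without CD24hi replicate 3 (adjusted p = 0.0694). Ccr7, which draws cells into the medulla, was at 10.82, 11.11 and 10.76 and then at 11.37, 11.47 and 11.36, a difference of 0.50 ± 0.15 that was not called (adjusted p = 0.0637), except with the replicate block (0.00704), with dim genes left out (0.0418) and without CD24hi replicate 2 (0.0432). Of the 14 measured receptors, 2 rose (Cxcr4 and Cxcr6) and 2 fell, and the other 10, Cxcr3, Ccr2 and Ccr6 among them, were not called. Without CD24hi replicate 3 the higher calls in this list numbered 0, and without CD24int replicate 1 or 2 they numbered 1.

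Genes of egress and homing mostly rose where they were called. S1pr1 was at 7.51, 7.45 and 6.71 in CD24hi and at 9.24, 8.79 and 8.90 in CD24int. The lowest CD24int array was above the highest CD24hi array by more than the range within either group, and the difference was 1.75 ± 0.23 (3.37-fold higher, adjusted p = 1.99e-05). Without CD24hi replicate 3 it was 1.49 (adjusted p = 0.000296). Of 23 measured genes 11 rose and 3 fell, against 2.26% and 2.75% of all genes, and the median difference was 0.53. The mean level of the list was 9.66 to 9.91 in CD24hi and 10.14 to 10.34 in CD24int.

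A second sphingosine 1-phosphate receptor, S1pr4, was at 8.11, 8.21 and 7.66 and then at 9.19, 9.23 and 9.24, a rise of 1.23 ± 0.13 (adjusted p = 7.46e-07). Ms4a4b, a membrane protein of mature T cells, rose by 1.07 ± 0.11 (adjusted p = 3.91e-07), and Itgb7, an integrin chain of gut homing, by 0.95 ± 0.11 (adjusted p = 2.89e-06). Klf3, a Krüppel-like repressor, was at 8.67, 8.50 and 7.93 in CD24hi and at 10.15, 9.85 and 9.60 in CD24int, and rose by 1.50 ± 0.20 (adjusted p = 1.95e-05). Foxo1, a factor upstream of Klf2, rose by 0.70 ± 0.11 (adjusted p = 0.000142), and Selplg, the selectin ligand PSGL-1, by 0.53 ± 0.09 (adjusted p = 0.000292). Klf2 itself was at 11.15, 12.03 and 10.85 in CD24hi and at 12.12, 12.52 and 11.74 in CD24int. Those groups overlapped, and the difference of 0.78 was not called (adjusted p = 0.202). With the replicate block it was called (adjusted p = 0.000393), each CD24int array being above the CD24hi array of its number. The falling genes were Plxnd1, a semaphorin receptor that guides thymocytes to the medulla (−1.10 ± 0.19, adjusted p = 0.000397), and the integrin chains Itgb1 (−0.95 ± 0.25, adjusted p = 0.0222) and Itgal (−0.43 ± 0.09, adjusted p = 0.00407). Itgb1 was not called without CD24hi replicate 1 or 3 or without CD24int replicate 1 or 2, with differences of −0.82 to −0.98. Coro1a, Cd69 and Il7r were not called.

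**Figure D3:**
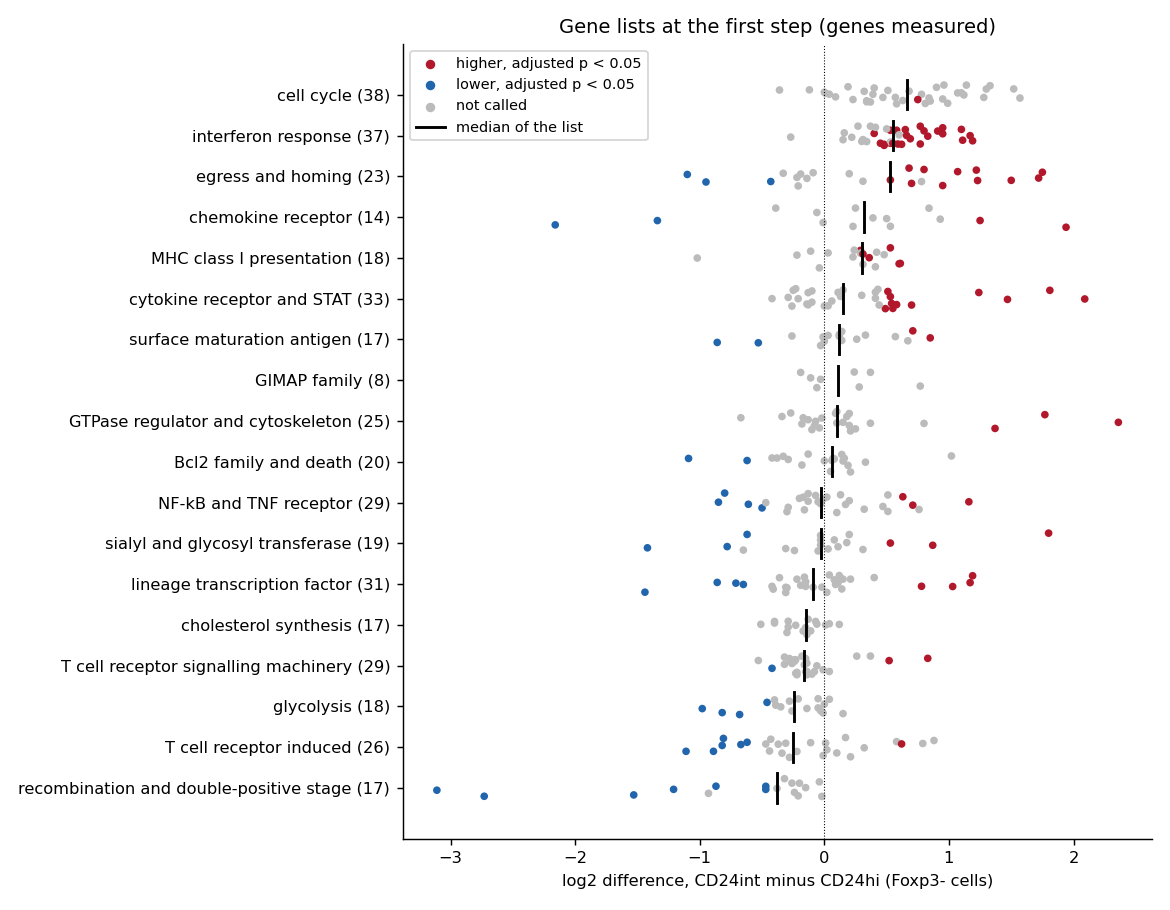
Difference between CD24int and CD24hi on the log2 scale (horizontal axis) for the members of the 18 pathway lists, one point per gene, in red where called higher, blue where called lower and grey where not called, with a bar at the median. The interferon response list has its median at 0.55 with 24 red points, and the recombination list at −0.38 with 7 blue points. The blue points of the recombination list include Cd24a, the gene of the sorted protein.

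Interferon response genes formed the list with the most calls. Of 37 measured genes, 24 rose and 0 fell, against 2.26% higher over all genes, and the median difference was 0.55. The mean level of the list was 8.75, 8.59 and 8.54 in CD24hi and 9.27, 9.10 and 9.26 in CD24int, so that all 3 CD24int arrays lay above all 3 CD24hi arrays. The count was 15 without CD24hi replicate 3, 12 when the 6 arrays were fitted alone, and 29 with the replicate block, with 0 lower calls in each.

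Ifit3, an antiviral effector protein, was at 6.82, 6.32 and 6.26 in CD24hi and at 7.68, 7.46 and 7.78 in CD24int. It rose by 1.17 ± 0.17 (2.25-fold, adjusted p = 6.17e-05). Ifi27l2a, at 11.12, 11.63 and 11.53 and then at 12.42, 12.53 and 12.63, rose by 1.10 ± 0.16 (adjusted p = 6.17e-05). The oligoadenylate synthetases, which activate RNase L on sensing double-stranded RNA, were Oas3 (0.95 ± 0.15), Oas2 (1.11 ± 0.20) and Oas1a (0.83 ± 0.19), at adjusted p of 0.000123, 0.000922 and 0.00927. Oas3 was nearly constant within each group, at 5.76, 5.80 and 5.75 and then at 6.79, 6.68 and 6.68. Oas1a lost its call without CD24hi replicate 3 (0.71, adjusted p = 0.0684) and without CD24int replicate 2 (0.76, adjusted p = 0.0571). Cmpk2, a nucleotide kinase beside Rsad2 in the genome, rose by 1.19 ± 0.21 (adjusted p = 0.000624). The RNA sensors Ifih1 (0.59 ± 0.11) and Dhx58 (0.80 ± 0.14) rose too, as did Usp18, which restrains signalling by the interferon receptor (0.77 ± 0.15), and Irf9, an interferon regulatory factor (0.48 ± 0.09). Trim30a rose by 0.55 ± 0.09 (adjusted p = 0.000405). Members not called included Irf1 (0.16), Gbp2 (0.15), Mx2 (0.22) and Ifitm3 (−0.27), and Ifi35 was at an adjusted p of 0.0526, or 0.0082 with the block.

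Many genes induced by type I interferon carry a promoter motif known as the interferon-stimulated response element. Its core was searched here as GAAANNGAAA and, for the opposite strand, TTTCNNTTTC, overlapping matches counted separately, in windows from 250 bases before to 50 bases after the gene start (RefSeq, GRCm38.p6). A window was found for 18 of the 24 higher interferon genes, and 10 of the 18 held the motif (55.6%). Among the members not called, 4 of 10 held it (40.0%). Over all array genes with a window, 524 of 14453 held it (3.63%), and the figure was 9.72% of all higher and 2.70% of all lower genes. The higher genes with the motif, 31 of 319, include the 10 interferon genes. A match describes the letters of the window and is not a measured binding site. The 160 bases before the start of 5 of the higher genes are printed below with the matches in capitals, because the matches sit at different distances and on different strands. All are written 5′ to 3′ along the gene. Ifit3 lies on the plus strand at chr19:34583369-34583528, Ifit1 on the plus strand at chr19:34640729-34640888, Oas1a on the minus strand at chr5:120907526-120907685, Oas3 on the minus strand at chr5:120777660-120777819, and Rsad2 on the minus strand at chr12:26456453-26456612.
Ifit3: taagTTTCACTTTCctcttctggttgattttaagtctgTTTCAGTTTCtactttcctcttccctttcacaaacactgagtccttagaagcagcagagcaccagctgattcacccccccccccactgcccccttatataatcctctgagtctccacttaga
Ifit1: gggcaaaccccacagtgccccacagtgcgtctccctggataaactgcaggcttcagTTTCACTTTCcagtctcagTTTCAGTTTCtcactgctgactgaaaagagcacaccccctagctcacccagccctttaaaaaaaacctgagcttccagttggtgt
Oas1a: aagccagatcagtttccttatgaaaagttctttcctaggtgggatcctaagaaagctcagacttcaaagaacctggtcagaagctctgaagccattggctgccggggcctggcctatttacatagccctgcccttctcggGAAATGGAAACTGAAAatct
Oas3: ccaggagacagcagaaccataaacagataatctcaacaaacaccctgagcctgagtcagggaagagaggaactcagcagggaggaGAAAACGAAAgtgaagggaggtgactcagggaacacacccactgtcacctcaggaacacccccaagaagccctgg
Rsad2: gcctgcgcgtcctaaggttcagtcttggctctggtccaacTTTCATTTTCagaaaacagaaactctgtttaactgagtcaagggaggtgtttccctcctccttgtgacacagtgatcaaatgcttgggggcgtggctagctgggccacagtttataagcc

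In Ifit3 the 2 matches began 156 and 122 bases before the start, both as TTTCNNTTTC, and in Ifit1 they began 104 and 85 bases before it. In Oas1a 2 overlapping matches lay 20 and 14 bases before the start in the GAAANNGAAA direction. Oas3 and Rsad2 had 1 match each, at 75 and 120 bases. The rises of these genes ranged from 0.62 ± 0.14 in Ifit1 (adjusted p = 0.00811) and 0.66 ± 0.18 in Rsad2 (adjusted p = 0.0277) to 1.17 in Ifit3. Ifit1 lost its call without CD24hi replicate 3 (0.47, adjusted p = 0.0875) and without CD24int replicate 1 (0.56, adjusted p = 0.0505). Rsad2, an antiviral enzyme that also binds lipid droplets, kept its call only without CD24hi replicate 1 or CD24int replicate 2, and its differences over the 6 fits were 0.54 to 0.83.

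In class I antigen presentation, a minority of genes was called. Of 18 measured genes 6 rose and 0 fell, with a median difference of 0.30. Psmb9, an immunoproteasome subunit, was at 10.05, 10.13 and 10.21 in CD24hi and at 10.70, 10.65 and 10.86 in CD24int, a rise of 0.61 ± 0.11 (adjusted p = 0.0006). The class I heavy chain H2-K1 rose by 0.60 ± 0.11 (adjusted p = 0.000918). Tap1, a peptide transporter subunit, differed by 0.53 ± 0.13 (adjusted p = 0.0125), and its mean over all its probe sets by 0.10 (adjusted p = 0.633). That mean takes in dim probe sets, at mean levels of 2.52 to 5.16 against 10.49 for the one used. Tap1 was not called without CD24hi replicate 2 or 3 or CD24int replicate 1, at 0.43 to 0.50. B2m, the class I light chain, differed by 0.36 ± 0.09 (adjusted p = 0.0187) and was not called without CD24hi replicate 1 or 2 or CD24int replicate 3. The number of calls in the list was 2 without CD24hi replicate 2 (with 1 lower) or when the 6 arrays were fitted alone, 3 without CD24hi replicate 3, CD24int replicate 1 or CD24int replicate 3, and 9 with the block. H2-Q10, a class I gene of the liver, was at 4.46, 4.23 and 7.35 in CD24hi, high in the array with the liver transcripts.

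Most genes that T cell receptor signalling induces were not called. Of 26 measured genes 6 fell, Egr2, Nab2, Dusp5 and the orphan nuclear receptors Nr4a1, Nr4a2 and Nr4a3, and 1 rose, Myc, with a median difference of −0.25. Egr2 was at 9.44, 9.25 and 9.28 in CD24hi and at 8.43, 8.47 and 8.62 in CD24int, a fall of 0.82 on the log2 scale (SE 0.16, adjusted p = 0.00164). Nr4a1, whose product is known as Nur77, was at 11.44, 11.58 and 11.42 and then at 10.77, 10.93 and 10.73, a difference of −0.67 ± 0.15 (adjusted p = 0.00766). It is also on the list of genes raised by tissue dissociation, of which the other 14 of 15 were not called. Myc, a regulator of cell growth, rose by 0.62 ± 0.12 (adjusted p = 0.00225). Cd5, Cd69 and Egr1 were not called, with differences of −0.31, −0.22 and −0.43. With the replicate block Egr1 was called lower (adjusted p = 0.0201). The lower count was 3 without CD24int replicate 3 and 3 with the 6 arrays fitted alone. Dusp5 lost its call without CD24hi replicate 2 or CD24int replicate 1 or 3, Nab2 without CD24hi replicate 1 or CD24int replicate 2 or 3, and Nr4a2 without any one of CD24hi replicates 2 and 3 and CD24int replicates 1 and 3.

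Of 29 genes of the receptor's signalling machinery, 2 were called higher and 1 lower, or 3 and 5 with the replicate block, and 0 were lower without CD24hi replicate 1 or CD24int replicate 2. The negative regulators Ptpn22, a phosphatase (0.83 ± 0.12, adjusted p = 6.93e-05), and Cblb, a ubiquitin ligase (0.52 ± 0.10, adjusted p = 0.00211), rose. The adaptor Lcp2 differed by −0.42 ± 0.10 (adjusted p = 0.0108) and was not called without CD24hi replicate 1, CD24int replicate 2 or CD24int replicate 3, at −0.38 to −0.39.

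Members of the NF-kB and TNF receptor families were called both ways, 3 higher and 4 lower of 29, or 5 and 5 with the replicate block. Bcl3, a nuclear partner of NF-kB, was at 7.39, 7.42 and 7.48 in CD24hi and at 8.59, 8.50 and 8.68 in CD24int. The rise of 1.16 ± 0.12 (adjusted p = 5.41e-07) was about 10 times its SE. Tnfrsf25 rose by 0.71 ± 0.15 (adjusted p = 0.00393). Traf4, an adaptor, fell by 0.80 on the log2 scale (SE 0.11, adjusted p = 1.96e-05), and Tnfsf11, the ligand RANKL through which thymocytes support medullary epithelium, was at 8.40, 8.35 and 8.51 and then at 7.47, 7.34 and 7.89, a fall of 0.85 on that scale (SE 0.18, adjusted p = 0.00481). The inhibitor Nfkbia, at 12.63 to 12.85 in all 6 arrays, was not called.

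Of 31 lineage transcription factors, 4 rose (E2f2, Tbx21, Dtx1 and Eomes) and 4 fell (Gata3, Tox2, Tox and Rora). Dtx1, Tox and Rora, at adjusted p of 0.0252, 0.0222 and 0.0134, kept their calls in 3, 2 and 3 of the 6 fits that left out 1 array. The higher count was 2 without CD24hi replicate 3, without CD24int replicate 1 or 2 and with the 6 arrays fitted alone, and the lower count was 2 without CD24int replicate 2 and 8 with the replicate block. Gata3, which supports the CD4 fate, was at 9.94, 10.08 and 10.05 in CD24hi and at 9.30, 9.25 and 9.37 in CD24int, a fall of 0.71 on the log2 scale (SE 0.10, adjusted p = 6.2e-05). Tox2 fell by 1.44 on that scale (SE 0.22, adjusted p = 0.000142). Its other probe set, at a mean level of 4.04, differed by 0.00. E2f2, a cell cycle regulator, was at 8.59, 8.32 and 8.13 and then at 9.72, 9.43 and 9.45, and rose by 1.19 ± 0.17 (adjusted p = 4.41e-05). Tbx21, the factor T-bet, was at 3.53, 3.95 and 3.85 in CD24hi and at 5.54, 5.27 and 4.00 in CD24int, with replicate 3 close to CD24hi. Its difference of 1.17 ± 0.26 (adjusted p = 0.00544) was 0.86 without CD24int replicate 1 (adjusted p = 0.0618) and 1.00 without CD24int replicate 2 (adjusted p = 0.0501). Zbtb7b, the factor ThPOK, differed by −0.42 (adjusted p = 0.0526, or 0.00365 with the block), and Ets1, Ikzf1 and Bcl11b were not called.

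Of 20 genes of the Bcl2 family and death receptors, 2 fell and 0 rose. Bcl2l11, the killer protein Bim, was at 9.80, 9.70 and 10.05 in CD24hi and at 8.67, 8.59 and 9.01 in CD24int, a fall of 1.09 on the log2 scale (2.13-fold lower, SE 0.16, adjusted p = 8.22e-05). Bcl2l1, which encodes the survival protein Bcl-xL, differed by −0.62 ± 0.15 (adjusted p = 0.0111). That call was lost without CD24int replicate 2 (−0.47, adjusted p = 0.111), without CD24hi replicate 3 (−0.57, adjusted p = 0.0616) and with the mean of its probe sets (−0.18, adjusted p = 0.508). The other probe sets of Bcl2l1 were dim, at mean levels of 3.47 to 4.79 against 8.46 for the one used. Bcl2 and Mcl1 were not called, at −0.42 and 0.05, and Bcl2 was called with the block (adjusted p = 0.0421). The block gave 4 lower calls in this list, and leaving out CD24hi replicate 3 or CD24int replicate 2 gave 1.

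Cytokine receptors and their STAT pathway rose in 11 of 33 genes and fell in 0. Il2rb, the receptor chain shared by IL-2 and IL-15, was at 5.76, 5.74 and 5.44 in CD24hi and at 7.47, 7.08 and 6.80 in CD24int, a rise of 1.47 ± 0.18 (2.76-fold, adjusted p = 7.54e-06). Il6ra, the IL-6 receptor chain, was at 8.48, 8.89 and 8.78 and then at 9.70, 10.10 and 10.06, a rise of 1.24 ± 0.20 (adjusted p = 0.000228). Il27ra rose by 0.58 ± 0.11 (adjusted p = 0.00117). The feedback inhibitors Socs3 and Cish rose, Socs3 by 1.81 ± 0.34 from 7.19, 7.04 and 6.39 to 9.04, 8.44 and 8.57 (adjusted p = 0.00124), and Cish by 0.70 ± 0.13 (adjusted p = 0.00113). Il7r, Jak1 and Socs1 were not called, although with the block Socs1 was called lower (adjusted p = 0.0285) as 1 of 2 lower calls. The higher count was 7 without CD24hi replicate 2, CD24hi replicate 3 or CD24int replicate 1.

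Cell cycle genes differed among replicates as much as between the groups. The list of 38 genes had a mean level of 8.66, 8.02 and 7.99 in CD24hi and 9.25, 8.62 and 8.77 in CD24int. Each CD24int array was above the CD24hi array of its number, but replicate 1 was the highest of both groups and the group ranges overlapped. The median difference was 0.66, yet without the block 1 gene was called, Cenpa, a centromere histone (0.75 ± 0.20, adjusted p = 0.0251). With the replicate block 22 were called higher and 0 lower. Mki67, a marker of dividing cells, was at 9.71, 8.40 and 8.17 and then at 11.25, 9.86 and 9.89, a difference of 1.57 (adjusted p = 0.213 without the block and 0.000396 with it). Ccnd2, a cyclin of the G1 phase, differed by 0.32 ± 0.10, at an adjusted p of 0.0616 without the block and 0.0185 with it. Cenpa was not called without CD24int replicate 1 (0.54), CD24hi replicate 2 (0.68) or CD24hi replicate 3 (0.64). In bulk samples such as these, more cells of a kind and more RNA per cell cannot be told apart.

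**Figure D4:**
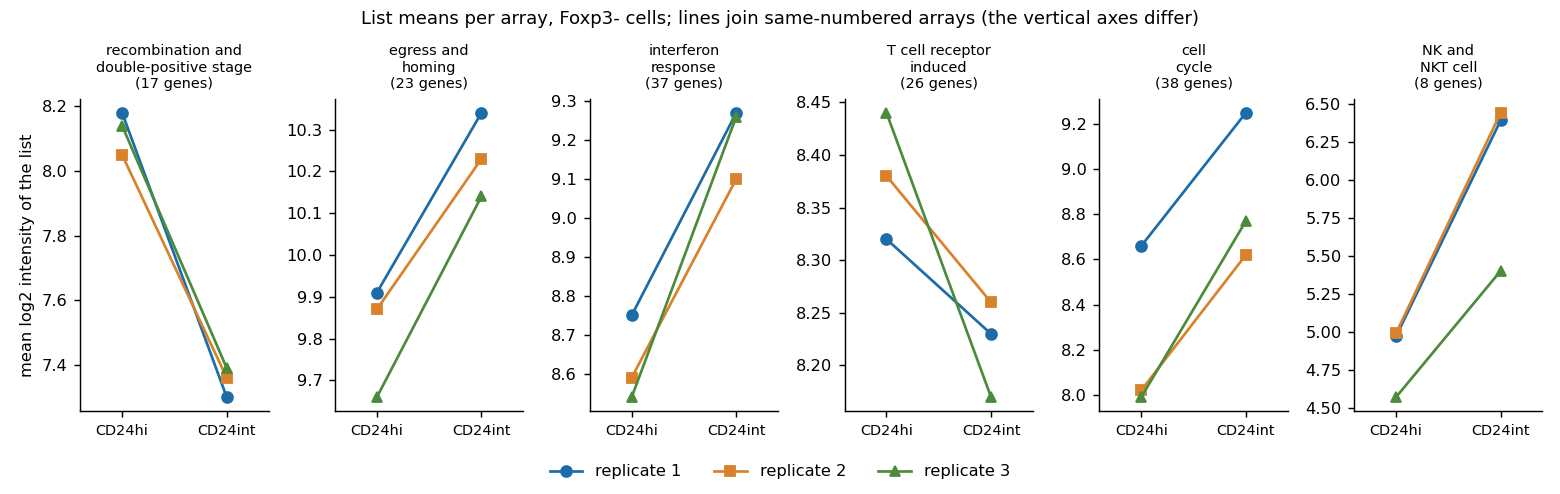
Mean log2 intensity of 6 lists in each of the 6 arrays, with lines joining same-numbered CD24hi and CD24int arrays, on vertical axes that differ between panels and do not start at 0. The interferon list lies at 8.54 to 8.75 in CD24hi and 9.10 to 9.27 in CD24int, while the cell cycle list overlaps between the groups, at 7.99 to 8.66 and 8.62 to 9.25.

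The largest rise among separated genes was that of Klrd1. Klrd1, the natural killer receptor CD94, was at 3.90, 3.49 and 2.95 in CD24hi and at 6.64, 6.52 and 4.86 in CD24int, a difference of 2.56 ± 0.39 (5.89-fold higher, adjusted p = 0.000114). Ifng was at 3.93, 3.99 and 3.43 and then at 6.63, 6.90 and 4.80, a rise of 2.33 ± 0.44 (adjusted p = 0.00131). The calcium-binding protein S100a6 (2.36 ± 0.50), the IL-18 receptor chain Il18r1 (2.09 ± 0.40) and the protease Gzmb (1.81 ± 0.33) rose as well, at adjusted p of 0.00398, 0.00132 and 0.000873. In all 5 of these genes CD24int replicate 3 was the lowest of the 3 CD24int arrays, and still above every CD24hi array. Cxcr6, at 4.59, 4.69 and 3.66 and then at 6.81, 7.02 and 4.93, was called at an adjusted p of 0.0192 and not without CD24hi replicate 3 (1.62, adjusted p = 0.12), CD24int replicate 1 (1.66, adjusted p = 0.108) or CD24int replicate 2 (1.56, adjusted p = 0.146).

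The list of natural killer and NKT cell markers shares Klrd1 and Cxcr6 with these genes, so its count is not separate from their rises. Of 8 measured, 4 rose (Klrd1, Cxcr6, Il2rb and Zbtb16, the factor PLZF of innate-like T cells), with a median difference of 1.30. The mean level of the 8 markers was 4.97, 4.99 and 4.57 in CD24hi and 6.39, 6.44 and 5.40 in CD24int. As for Klrd1 and Ifng, it was lowest in replicate 3 of both groups. Ncr1, the receptor that defines natural killer cells, differed by 0.14 and was not called. Zbtb16 was at 5.47, 5.44 and 4.63 and then at 7.52, 7.28 and 5.88 (1.71 ± 0.39, adjusted p = 0.00764). The list's count was 2 (without Zbtb16 and Cxcr6) on leaving out CD24hi replicate 3, CD24int replicate 1 or CD24int replicate 2, and 6 without CD24int replicate 3 or with the block. The gamma delta marker Cd163l1 rose by 1.10 ± 0.20, 1 of 3 measured. Of 14 genes of antigen-presenting cells 3 rose (Tyrobp, Fcer1g and Siglech), with a mean list level of 5.21 to 5.48 and then 5.64 to 6.05, and 0 were called without CD24hi replicate 3 or CD24int replicate 1, or 1 without CD24hi replicate 2 or CD24int replicate 2. Lyz2, Itgam and Csf1r, which mark myeloid cells, were not called. The lists of B cells (8 genes), erythroid cells (4), neutrophils and platelets (10) and skeletal muscle (9) had 0 calls. Of the markers of CD8 T cells 2 of 7 rose (Ctsw and Eomes) and 1 fell (Cd8a), of thymic epithelium 1 of 10 rose (Epcam), of Tregs 1 of 9 rose (Ikzf4), of pancreas 1 of 7 fell (Prss2), and of fibroblasts and endothelium 1 of 10 rose (Cdh5) and 1 fell (Col1a2). Epcam was not called without CD24hi replicate 1 or 2 or CD24int replicate 2, Ikzf4 without CD24hi replicate 1 or CD24int replicate 1 or 3, Cdh5 without CD24hi replicate 3, and Eomes without CD24hi replicate 3 or CD24int replicate 3. The part of such cells in the rises was not tested.

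Other large rises had narrower spreads. St8sia6, a sialyltransferase, was at 8.43, 8.30 and 7.84 in CD24hi and at 10.25, 9.87 and 9.85 in CD24int, a rise of 1.80 ± 0.14 (3.49-fold, adjusted p = 6.7e-09), and its 2 other probe sets rose by 1.47 and 1.77. Pdlim4, a cytoskeletal adaptor, was at 5.89, 6.12 and 5.49 and then at 7.80, 7.81 and 7.83, a rise of 1.98 ± 0.23 (adjusted p = 4.41e-06). Ms4a6c rose by 1.90 ± 0.22 (adjusted p = 3.03e-06), Rflnb, a filamin regulator, by 1.90 ± 0.25 (adjusted p = 2.1e-05) and Sidt1, a membrane protein of RNA transport, by 1.94 ± 0.29 (adjusted p = 7.66e-05). Ahnak, a large scaffold protein, was at 5.86, 6.05 and 5.32 and then at 8.34, 8.03 and 7.18, a rise of 2.11 ± 0.27 (adjusted p = 1.36e-05), on 1 probe set of 4, since the other 3, at mean levels of 4.14 to 4.40, differed by −0.03 to 0.19. Clcf1, a cytokine of the IL-6 family, rose by 2.07 ± 0.35 (adjusted p = 0.000431).

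Among 19 sialyl and glycosyl transferases 3 rose and 3 fell. Opposite to St8sia6, St3gal2 was at 7.85, 7.79 and 7.95 in CD24hi and at 6.52, 6.21 and 6.59 in CD24int, a fall of 1.42 on the log2 scale (SE 0.14, adjusted p = 5.35e-07), and St3gal3 and St6gal1 fell by 0.78 and 0.62 on that scale. St8sia4 was not called. Of 18 genes of glycolysis 4 fell and 0 rose, Slc2a3, a glucose transporter (−0.82 ± 0.12, adjusted p = 6.46e-05), Hk2, the hexokinase (−0.68 ± 0.11, adjusted p = 0.000155), Ldhb (−0.98 ± 0.20, adjusted p = 0.00242) and Pfkm (−0.46 ± 0.13, adjusted p = 0.0327). The call of Pfkm was kept only without CD24hi replicate 2. Gapdh and Pkm were not called. With the block 7 of the list were called lower, Pkm among them (adjusted p = 0.0333). In cholesterol synthesis 0 of 17 were called, and in the GIMAP family of lymphocyte GTPases 0 of 8, or 2 lower and 2 higher respectively with the block, and 2 higher in the GIMAP family on quantile-normalised values.

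Of 17 surface antigens of maturation, 2 rose and 2 fell, and with the block 5 rose. Without any 1 array the higher count was 0 or 1, and the lower count was 1 without CD24hi replicate 3 or CD24int replicate 1 or 2. Slamf1 fell by 0.53 on the log2 scale (SE 0.10, adjusted p = 0.000924). Thy1 (0.71 ± 0.19, adjusted p = 0.0277), Cd9 (0.85 ± 0.21, adjusted p = 0.0123) and Cd81 (−0.86 ± 0.21, adjusted p = 0.0152) were called. Thy1 kept its call only without CD24hi replicate 1, Cd9 lost it without CD24hi replicate 1 or CD24int replicate 2 or 3, and Cd81 lost it without CD24hi replicate 3 or CD24int replicate 1 or 2. Cd52 was not called. Among 25 genes of GTPase regulation and the cytoskeleton, Lgals1, the lectin galectin-1, was at 9.96, 10.40 and 10.50 and then at 11.50, 11.69 and 11.79, a rise of 1.37 ± 0.14 (adjusted p = 7.46e-07), and S100a4 and S100a6 were the other 2 called, both higher. S100a4 kept its call only without CD24int replicate 3. Actb was not called.

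The same step in GFP+ cells was set against this one, as the step in Foxp3+ minus the step in Foxp3- cells. Of 18194 genes, 281 differed (1.54%), of which 184 (1.01%) had the more positive step in Foxp3+ cells and 97 (0.533%) the more negative. On quantile-normalised values the split was 172 and 145. The lower count was 60 without Foxp3+ CD24hi replicate 1, 58 without Foxp3- CD24hi replicate 3 and 48 without Foxp3- CD24int replicate 1, and the total without the last was 185. Rag1 was at a mean of 6.77 in Foxp3- CD24hi and 3.66 in Foxp3- CD24int, and at 4.20 and 3.83 in the Foxp3+ groups, so its steps differed by 2.75 ± 0.36 (adjusted p = 8.15e-05). Both Foxp3+ means of Rag1 were near the lowest intensities, where a fall may be understated. Ccr9 fell from 12.55 to 10.39 in Foxp3- cells and was at 9.83 and 9.88 in Foxp3+ cells, a difference between steps of 2.21 (adjusted p = 4.65e-06). St8sia6 was at 8.19 and 9.99 in Foxp3- cells and at 10.27 and 10.33 in Foxp3+ cells (−1.73 ± 0.19, adjusted p = 1.73e-05). For these 3 genes the Foxp3+ CD24hi mean lay nearer to the Foxp3- CD24int mean than to the Foxp3- CD24hi mean.

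S1pr1 was at means of 7.23 and 8.98 in Foxp3- cells and 8.59 and 8.89 in Foxp3+ cells, and Ifit3 at 6.47 and 7.64 against 7.36 and 7.49. Their steps differed by −1.46 (adjusted p = 0.0189) and −1.04 (adjusted p = 0.0224). Of the interferon list, 8 of 37 genes had a step called more negative in Foxp3+ cells and 0 more positive, and its median step was 0.06 there against 0.55 in Foxp3- cells. Il6ra had steps of 1.43 in Foxp3+ and 1.24 in Foxp3- cells, and Cd24a was at 10.34 and 9.08 in the Foxp3+ groups. Neither difference between steps was called (adjusted p = 0.841 and 0.282). Axl, a receptor tyrosine kinase, had steps of opposite sign, −0.86 in Foxp3- cells and 1.54 in Foxp3+ cells (difference 2.41 ± 0.30, adjusted p = 7.56e-05). Its other probe set, at a mean level of 2.7, differed by −0.02 in Foxp3- cells. Across all 18194 genes the differences of the 2 steps correlated at r = 0.08 as a description, since genes are not independent replicates. Only 5.01% of these genes were called in the Foxp3- step. This r therefore rests largely on small differences, where the spread between arrays can pull it towards 0. Of the 113 genes at least 2-fold higher in Foxp3- cells, 87 had the same sign in Foxp3+ cells, with a median of 0.26 against 1.27, and of the 98 lower genes 60 did, with a median of −0.07 against −1.32. Those genes were chosen by their Foxp3- step, which places them on one side of this comparison.

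**Figure D5:**
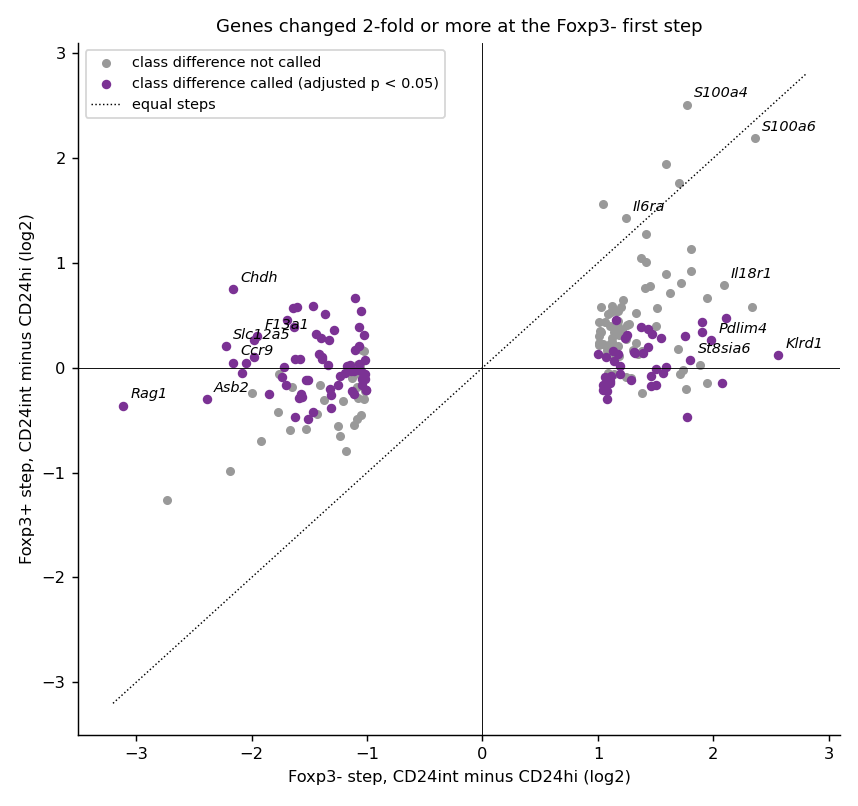
Difference between CD24int and CD24hi on the log2 scale in Foxp3- cells (horizontal axis) and Foxp3+ cells (vertical axis) for the 113 higher and 98 lower genes changed at least 2-fold in Foxp3- cells, in purple where the steps differed by the test, with a dotted line of equal steps. Most points lie nearer to 0 on the vertical axis than on the horizontal one, with Foxp3+ medians of 0.26 and −0.07, while Il6ra and S100a6 lie near the line.

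The second step, from CD24int to CD24lo in Foxp3- cells, shares the CD24int arrays with the first, so group values are given side by side. The first step minus the second differed from 0 in 1028 genes (5.65%), 333 more positive in the first step (1.83%) and 695 more negative (3.82%), and with the block in 1984, 730 and 1254. On quantile-normalised values the split was 481 and 615. The positive count was 205 without CD24int replicate 1 and 209 without CD24int replicate 3, the negative count 423 without CD24int replicate 2, and the total 681 without CD24int replicate 3. S1pr1 went up and then down, at 7.85, 8.01 and 7.54 in CD24lo after 9.24, 8.79 and 8.90 in CD24int (2.93, adjusted p = 3.63e-05). The cell adhesion gene Amigo2 was at 8.82, 8.78 and 9.07 in CD24int, above both CD24hi (7.23 to 7.82) and CD24lo (6.21 to 7.47), with a difference between steps of 3.28 ± 0.43 (adjusted p = 1.8e-05). Tmie had the same shape, with 2.72 ± 0.22 (adjusted p = 3.5e-08). The other probe set of Amigo2, at a mean level of 5.97, differed by 0.07 at the first step.

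Rag1 and Ccr9 made most of their fall in the first step. Rag1 was at 3.29, 3.33 and 3.85 in CD24lo, next to its CD24int levels, and Ccr9 was at 9.63, 9.58 and 9.58, a further −0.80. The CD24int values of Rag1 were already as low as those of Rag2 (3.57 to 4.05), so a further fall of Rag1 may be understated. Ctla2a, a cysteine protease inhibitor, was at 7.56, 7.57 and 8.29 in CD24hi, at 6.68, 6.68 and 6.08 in CD24int and at 9.79, 9.82 and 10.07 in CD24lo, with a difference between steps of −4.74 ± 0.37 (adjusted p = 1.93e-08). Il17rb also reached its lowest values in CD24int, at 7.43, 6.78 and 6.54 against 8.85 to 8.96 before and 9.03 to 10.27 after. Klrb1a, a natural killer receptor gene, and Prg4 were near background in both first-step groups, at 2.56 to 3.13 and 3.58 to 4.43, and each was 4.85 higher in CD24lo than in CD24int. The effector genes that rose first went on in the same direction, with a further 3.73 in Klrd1, 3.38 in Ifng and 3.98 in S100a6. The interferon list had a median of −0.25 in the second step. Of its 37 genes, 17 were called as more positive in the first step than in the second, and 0 as more negative. Its members differed, as Oas2 and Usp18 fell by 0.67 and 0.68 in the second step. Ifit3, Oas3 and Oas1a rose by a further 0.41, 0.49 and 1.70. The differences between steps of these last genes were not called (adjusted p = 0.168, 0.415 and 0.156).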

How the data were processed

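Messenger RNA of sorted BALB/c T cells was measured on 27 Affymetrix arrays (3 in each of 9 groups), with 50 ng of RNA labelled per array, per the labels. The authors deposited intensities computed with RMA (background correction, normalisation and summary of probes), per the submitters' processing notes. Its version was not given in the sources used here. Values of 3.55 to 24083 were taken to log2, and array medians were 30.3 to 32.0. Of 45101 probe sets, 34958 had 1 gene symbol, and the brightest stood for each of 18194 genes. Precision is limited by the number of arrays, with a median SE of 0.15 for a difference.

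The means of the 9 groups were fitted with limma 3.58.1 in R 4.3.3 (prior degrees of freedom 5.98), with two-sided p-values adjusted by Benjamini-Hochberg over all genes. Named were the 14 largest rises and 14 largest falls among called genes whose arrays did not overlap, and the genes of the sort. Up to 4 called genes and the brightest uncalled one came from each of the 18 pathway lists among the 32 lists. In the other comparisons 6 genes each way were named. Further members, some from lists of other kinds, were named as examples after their values were seen. Members and lists were chosen with earlier results of these data known. Same-numbered arrays deviated together (r = 0.48, 0.22 and 0.25, against −0.31 to 0.10 otherwise). That pairing comes from the data, as no label says what the number marks. The deviations were taken from group means and cancel within each group. Positive same-number values therefore push the other values down, and the other range is not a separate baseline. Alternatives were a replicate block, the compared arrays alone, dim genes (mean log2 under 5) left out, the mean of all probe sets, quantile normalisation, a pseudocount of 16, and leaving out each array. The fit was tested on simulated data whose noise was drawn independently for each array. That test does not cover the shared deviation of same-numbered arrays.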

Additional observations from a re-analysis of the deposited data

Results flagged for a closer look

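For 12 genes named for the comparison of the 2 steps, the step from CD24hi to CD24int differed between Foxp3+ and Foxp3- cells by the test of the difference itself (limma). Values here are the Foxp3+ step minus the Foxp3- step on the log2 scale. In 6 genes the Foxp3+ step was the more positive. Chdh differed by 2.91 ± 0.45 (adjusted p = 0.000649), Rag1 by 2.75 ± 0.36 (adjusted p = 8.15e-05), Slc12a5 by 2.43 ± 0.22 (adjusted p = 9.86e-07), Axl by 2.41 ± 0.30 (adjusted p = 7.56e-05), and F13a1 and Il17rb by 2.24 each, at adjusted p of 0.000149 and 0.0136. Slc12a5 differed by −2.22 in Foxp3- cells and 0.21 in Foxp3+ cells.

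In the other 6 the Foxp3+ step was the more negative, Klrd1 by −2.44 ± 0.55 (adjusted p = 0.0191), Dapl1 by −2.24 ± 0.44 (adjusted p = 0.00601), Clcf1 by −2.22 ± 0.50 (adjusted p = 0.0182), St8sia6 by −1.73 ± 0.19 (adjusted p = 1.73e-05), Pdlim4 by −1.72 ± 0.33 (adjusted p = 0.00483) and Cdc25b by −1.66 ± 0.40 (adjusted p = 0.0318). Dapl1 was 1.77 higher at CD24int in Foxp3- cells and differed by −0.47 in Foxp3+ cells. The calls of Klrd1, Clcf1 and Cdc25b were lost without Foxp3- CD24hi replicate 3 (−2.19, −1.86 and −1.46, at adjusted p of 0.0653, 0.0653 and 0.0959) and also without Foxp3- CD24int replicate 1 (−2.12, −1.87 and −1.33). That of Il17rb was lost without Foxp3+ CD24hi replicate 2 (2.00, adjusted p = 0.0516).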

How the results depend on the processing

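For the first step in Foxp3- cells, 1822 genes were called with the replicate block (815 higher, 1007 lower) and 552 with the 6 arrays fitted alone (263 and 289). Leaving out 1 array gave 626 to 805 genes, 263 to 421 higher and 296 to 452 lower. For the difference from the Foxp3+ step, the replicate block gave 1041 genes (628 and 413) and the compared arrays alone 166 (117 and 49). There the numbers pair the samples less clearly (lowest r = −0.05). Leaving out 1 array gave 185 to 313, with 125 to 222 more positive and 48 to 108 more negative. For the first minus the second step, the block gave 1984 genes (730 and 1254), and leaving out 1 array gave 681 to 982, with 205 to 377 and 423 to 671. Every other setting kept these counts of all called genes within 1.5 times, though a pseudocount of 16 took the 2-fold counts from 113 and 98 to 72 and 60, and no named gene that was called changed direction. The causes of these shifts were not tested. Of the 573 genes named or listed for the first step, 410 stayed on the same side of the threshold in all settings, as did 8 of 12 and 11 of 12 in the other comparisons. Signal limits Rag2, Ncr1, Klrb1a, Rag1 in the groups compared other than Foxp3- CD24hi, and other genes near the lowest intensities, where a difference may be understated.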
